A study of Danio rerio with 6 samples.

Results

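The genes described here mark and pattern the endothelium, the cell layer that lines blood vessels. They were chosen by name from a list of 10 zebrafish genes (fli1a, tie1, tek, kdrl, kdr, flt4, cdh5, egfl7, efnb2a and ephb4a), and every array probe set whose annotation gives 1 of these symbols and no other was taken. Of the 10, 6 had a probe set, with 1 each, among 15502 probe sets tested: the VEGF receptor genes kdrl and flt4, the Tie receptor genes tie1 and tek, and the ephrin and Eph receptor genes efnb2a and ephb4a. No probe set carries the symbols fli1a, kdr, cdh5 or egfl7, so these 4 were dropped. The gene fli1a is annotated on the array under the name fli1, which a RefSeq gene table lists as the current symbol of the same gene. Its 2 probe sets are given beside the 6 and are not counted with them.

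Transcript levels came from pools of whole, dechorionated wild-type AB zebrafish embryos collected at 36 h post fertilisation, 3 arrays per treatment. One group had been kept in 5 µM 11,12-EET from 24 to 36 h, which is 12 h of exposure, and the other in the solvent DMSO over the same time. Both groups were of the same genotype and stage, with 25 embryos to a treatment group. By their titles the arrays are biological replicates, but nothing says whether the pools came from separate clutches, so p-values measure the spread between these pools, and the number of arrays limits the precision. Because whole embryos were pooled, the levels do not show which cells a transcript came from. Fewer endothelial cells and less of a transcript per endothelial cell cannot be told apart either.

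Endothelial cells sprout, choose an arterial or a venous identity and seal their junctions through a small set of receptors. VEGF ligands act on Kdrl, Kdr and Flt4, angiopoietins act on Tek with Tie1 as its partner, and ephrin-B2 on arterial cells meets EphB4 on venous cells. Some trunk vessels form from sprouts of the aorta and of the cardinal vein. At the stage sampled, circulation has started and the first blood stem cells are leaving the aortic wall. The compound 11,12-EET is a lipid formed from arachidonic acid by cytochrome P450 epoxygenases, and in mammals endothelial cells release it and it relaxes vessels. Setting EET against DMSO embryos asks whether the exposure changed transcript levels.

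None of the 6 vessel genes passed the test between EET and DMSO embryos. The test was limma over all 15502 probe sets with Benjamini-Hochberg adjustment and calls at an adjusted p under 0.05. It called 0 of the 6, where the percentage called over all probe sets was 0%, and limma gave 0 of the 6 an unadjusted p under 0.05, against 5.27% of all probe sets. In 0 of the 6 did the 3 EET arrays separate from the 3 DMSO arrays, against 11.7% of all probe sets. By group mean 3 were higher and 3 lower in EET, and the median log2 difference, EET minus DMSO, was 0.01, beside 0.01 over all 8793 genes with a single symbol. For 5 of the 6 the 95% interval of the difference lay within 2-fold in either direction, which held for 77.6% of all genes. The exception was tek. The adjusted p of the 6 ran from 0.932 to 0.977.

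Among the 7751 brighter probe sets, those at or above the median level of 4.81, limma with its own adjustment called 6 (0.0774%), of which 0 were among the 3 vessel genes in that set, kdrl, flt4 and efnb2a. In that fit 0 of the 3 had an unadjusted p under 0.05, against 6.66% of the brighter probe sets. With limma's trend and robust settings 0 of the 6 passed over all probe sets, where 3 probe sets were called in all. Among the brighter ones 0 of the 3 passed, where 10 of the 7751 were called.

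**Figure D1:**
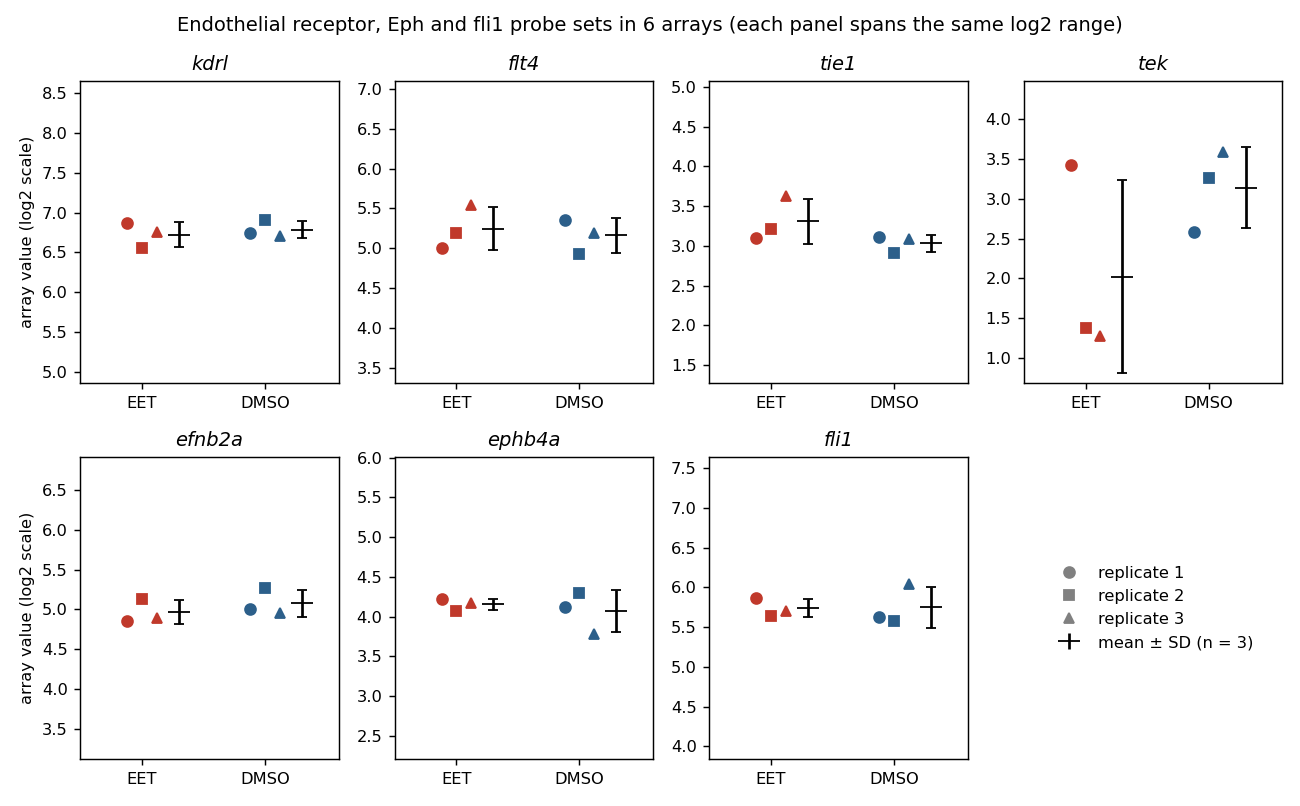
Array values on the log2 scale of the 6 vessel probe sets and of the brighter fli1 probe set, with the EET arrays left of the DMSO arrays, replicates marked by shape and the mean ± SD (n = 3) beside them. Every panel spans the same number of log2 units, and the groups overlap in each, with tek the most scattered at 1.27 to 3.42 in EET and 2.58 to 3.59 in DMSO.

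The VEGF receptor gene kdrl, which encodes the main receptor for VEGF-A in zebrafish vessels, was the brightest of the 6 and had the narrowest interval. Its log2 values were 6.86, 6.56 and 6.75 in EET replicates 1 to 3, against 6.75, 6.90 and 6.70 in DMSO replicates 1 to 3. The 2 groups overlapped in part, with both the lowest EET array and the highest DMSO array being replicate 2. The mean was 6.72 ± 0.15 in EET and 6.78 ± 0.11 in DMSO (SD, n = 3), a log2 difference of -0.06 ± 0.13 (SE; limma, adjusted p = 0.973). The 95% interval ran from -0.37 to 0.25, that is from 0.771 to 1.19 of the DMSO level. Among the brighter probe sets the interval was narrower still, at -0.32 to 0.20 (limma, adjusted p = 0.948). The kdrl difference was 0.049 in the replicate 3 pair and -0.11 in the other 4 arrays, so its sign turned between them.

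The other VEGF receptor gene measured, flt4, encodes the receptor for Vegfc and is needed for venous and lymphatic sprouting. It read 5.00, 5.19 and 5.54 in the EET arrays and 5.36, 4.93 and 5.19 in the DMSO arrays. Replicate 3 was the highest in EET, replicate 1 the highest in DMSO, and the groups overlapped. The log2 difference was 0.08 ± 0.19 (SE; limma, adjusted p = 0.977), with an interval of -0.40 to 0.57. The sign turned within the 4 arrays of replicates 1 and 2, where the difference was -0.046, while in the replicate 3 pair it was 0.35.

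The Tie receptor genes had the largest differences of the 6 by size, in opposite directions and at low levels. For tie1, whose product partners Tek, the values were 3.09, 3.21 and 3.63 in EET, against 3.11, 2.91 and 3.09 in DMSO. EET replicates 2 and 3 lay above every DMSO array and EET replicate 1 did not. The log2 difference was 0.28 ± 0.17 (SE; limma, adjusted p = 0.932), with an interval of -0.15 to 0.71. It was 0.55 in the replicate 3 pair and 0.14 in the other 4 arrays, and without EET replicate 3 it was 0.12.

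The gene tek encodes the receptor for angiopoietins. It read 3.42, 1.38 and 1.27 in EET, against 2.58, 3.26 and 3.59 in DMSO. EET replicates 2 and 3 lay below every DMSO array, while EET replicate 1 was higher than 2 of the 3 DMSO arrays. The mean was 2.02 ± 1.21 in EET and 3.14 ± 0.51 in DMSO (SD, n = 3). The log2 difference of -1.12 ± 0.66 (SE; limma, adjusted p = 0.932) had an interval of -2.77 to 0.53, which holds both no difference and a level in EET of 0.146 of that in DMSO. The level of tek was in the dimmest 25% of probe sets, near the upper edge at percentile 21.6. The median SD between replicates in that bin was 0.982, and the SD of tek pooled over both groups was 0.931. Because the bin also holds much dimmer probe sets, its median does not show the spread usual at the level of tek. Left-out arrays moved the difference: it was -1.82 without EET replicate 1, -0.75 without EET replicate 3 and -0.52 without both replicate 3 arrays, while the replicate 3 pair alone differed by -2.32. No detection calls were used here, so it is not known whether the 2 lower EET readings were above background.

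**Figure D2:**
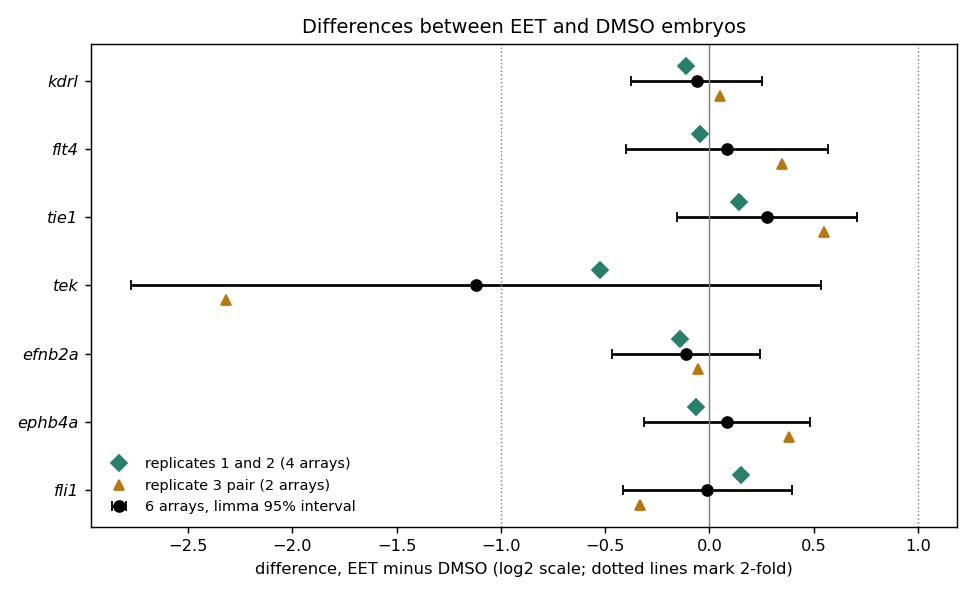
Differences in log2 level, EET minus DMSO, with the limma 95% interval over 6 arrays (black), the value in the 4 arrays of replicates 1 and 2 (green diamonds) and in the replicate 3 pair (orange triangles). All 7 intervals include 0, and tek alone reaches beyond a 2-fold difference.

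Arterial and venous identity were represented by efnb2a and ephb4a. The arterial gene efnb2a encodes an ephrin-B2 ligand and read 4.86, 5.14 and 4.90 in EET, against 5.00, 5.27 and 4.95 in DMSO. In each group replicate 2 was the highest, and each EET array lay below the DMSO array of the same number, although the groups overlapped. Whether the numbers pair the arrays is not settled, and EET replicate 2 lay above DMSO replicates 1 and 3. The log2 difference was -0.11 ± 0.14 (SE; limma, adjusted p = 0.950), with an interval of -0.47 to 0.24. The difference was -0.06 in the replicate 3 pair and -0.14 in the other 4 arrays. With the replicate number as a block the adjusted p was 0.863.

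The venous gene ephb4a encodes an EphB4 receptor and read 4.22, 4.07 and 4.17 in EET, against 4.12, 4.30 and 3.78 in DMSO. The EET arrays lay inside the range of the DMSO arrays, whose lowest was replicate 3. The log2 difference was 0.09 ± 0.16 (SE; limma, adjusted p = 0.968), with an interval of -0.31 to 0.48. It was 0.38 in the replicate 3 pair and -0.063 in the other 4 arrays. Its sign rests on DMSO replicate 3: the difference was -0.056 without that array and 0.078 without EET replicate 3.

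The ETS transcription factor gene fli1, the fli1a of the list, is a widely used endothelial marker that neural crest derivatives also express. Its brighter probe set read 5.86, 5.64 and 5.71 in EET, against 5.63, 5.57 and 6.04 in DMSO. The EET arrays lay between the lowest and the highest DMSO array. The log2 difference was -0.01 ± 0.16 (SE; limma, adjusted p = 0.996), with an interval of -0.42 to 0.39. Its sign turned, being -0.33 in the replicate 3 pair and 0.15 in the other 4 arrays. The dimmer probe set, at 2.87 ± 1.09 in EET and 3.20 ± 0.59 in DMSO (SD, n = 3), differed by -0.33 ± 0.62 (SE; limma, adjusted p = 0.968).

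The spread between replicates was smallest for the brightest of the 6, kdrl, and largest for the dimmest, tek, while the other 4 did not follow their order of level. The pooled SD was 0.132 for kdrl, 0.160 for efnb2a, 0.246 for flt4, 0.192 for ephb4a, 0.213 for tie1 and 0.931 for tek. With all probe sets split by level into 4 bins of equal size, the median pooled SD was 0.124 in the brightest bin, which held kdrl, and 0.170 in the next, which held efnb2a and flt4. It was 0.286 in the bin of ephb4a and tie1 and 0.982 in the dimmest, that of tek. Less scattered than the median probe set of their bin were efnb2a, ephb4a, tie1 and tek, and more scattered were kdrl and flt4.

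**Figure D3:**
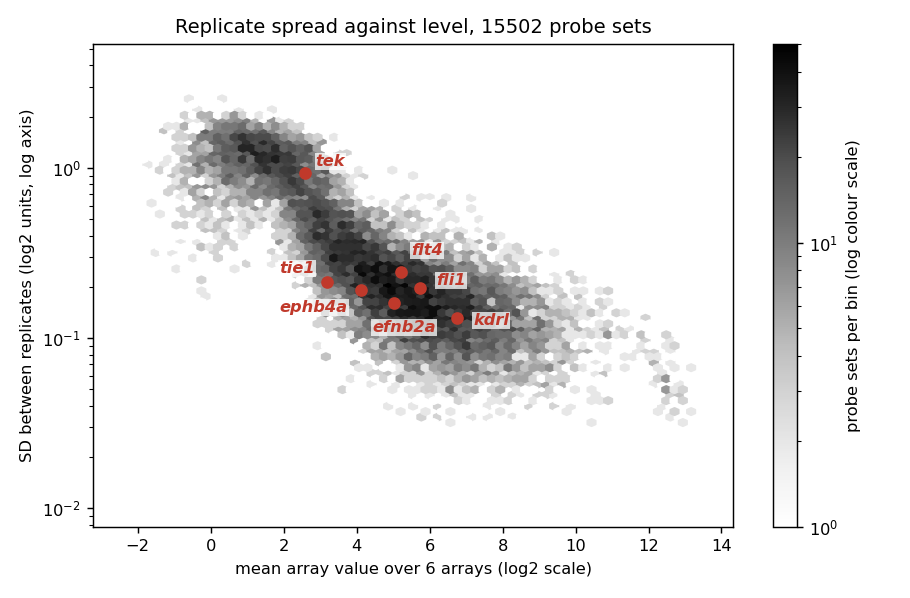
SD between replicates, pooled over both groups (log axis), against the mean array value on the log2 scale for all 15502 probe sets in grey bins, with the 6 vessel genes and fli1 in red. The SD of tek was 0.931, and the other 6 points lie between 0.132 and 0.246.

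In a principal component analysis of the brighter probe sets, component 1 (44.0% of the variance) set replicate 3 of EET and of DMSO apart from replicates 1 and 2. For that reason each vessel gene is also given within and without that pair. Component 2 (19.6%) set the treatments apart, at -9.31 to -4.60 in EET and 5.51 to 8.67 in DMSO. The median difference of the 6 vessel genes was 0.20 in the replicate 3 pair and -0.089 in the other 4 arrays. The levels were those of whole embryos: of 42 measured markers of 10 other tissues and cell types, 39 were at or above the median level, the exceptions being cryaa of the lens, fabp10a of the liver and spi1b of myeloid cells. Marker levels were summed on the unlogged scale, where the brightest marker weighs most. The summed level of the 4 epidermal markers was 12.99 to 13.11 in EET and 13.12 to 13.17 in DMSO on the log2 scale. Taken singly, each of these 4 overlapped between the groups, with log2 differences of -0.10 for krt4, -0.20 for krt5, -0.01 for tp63 and 0.09 for cldn1. The summed level of the 4 notochord and fin fold markers was 10.89 to 11.07 in EET and 11.36 to 11.56 in DMSO. These markers differed unequally, by -0.72 for and1, -1.38 for and2, -0.19 for col2a1a and -0.15 for tbxta, whose groups overlapped. Of the 39 brighter markers limma called 1, and2 (adjusted p = 0.0099 in the fit to the brighter probe sets), against 0.0940% of genes at such probe sets. That adjusted p was the lowest of this fit. Because the marker lists were drawn up with earlier results of these data known, the count does not test whether markers are called more often. Over all probe sets limma called 0 of the 42. The sums of the other 8 lists overlapped, red blood cells among them (13.61 to 13.73 in EET, 13.60 to 13.69 in DMSO). Of the RNA quality controls, the actin probe set at the 3' end exceeded that at the 5' end by 2.14 to 2.30 in EET and 1.74 to 2.01 in DMSO, and for GAPDH the excess was 0.94 to 1.27 in EET and 0.88 to 1.02 in DMSO. The part of these in the values of the vessel genes was not tested.

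A wider list of 128 vessel gene symbols, drawn up by role, holds none of the 10 symbols. How much of the level of each listed gene came from vessels is not known. It had 64 measured genes, each represented by its brightest probe set, with fli1, the fli1a of the 10, among them. By group mean 41 of them were higher in EET and 23 lower, beside 4520 higher and 4273 lower of all 8793 genes, and limma called 0 over all probe sets (0% of all genes). Of the 34 at brighter probe sets limma called 0 (0.0940% of the 5318 such genes), and 1 of these 34, smad6a, had an unadjusted p under 0.05 in the fit to the brighter probe sets, against 6.30% of such genes. The list's median log2 difference was 0.05, against 0.01 over all genes. The groups did not overlap in 7 of the 64, against 12.1% of all genes. In 5 all EET arrays were higher (6.37% of all genes) and in 2 all were lower (5.78%). An unadjusted p under 0.05 was found for 2 of the 64, against 4.66% of all genes. For all 34 at brighter probe sets the 95% interval of the difference lay within 2-fold, which held for 98.3% of such genes.

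**Figure D4:**
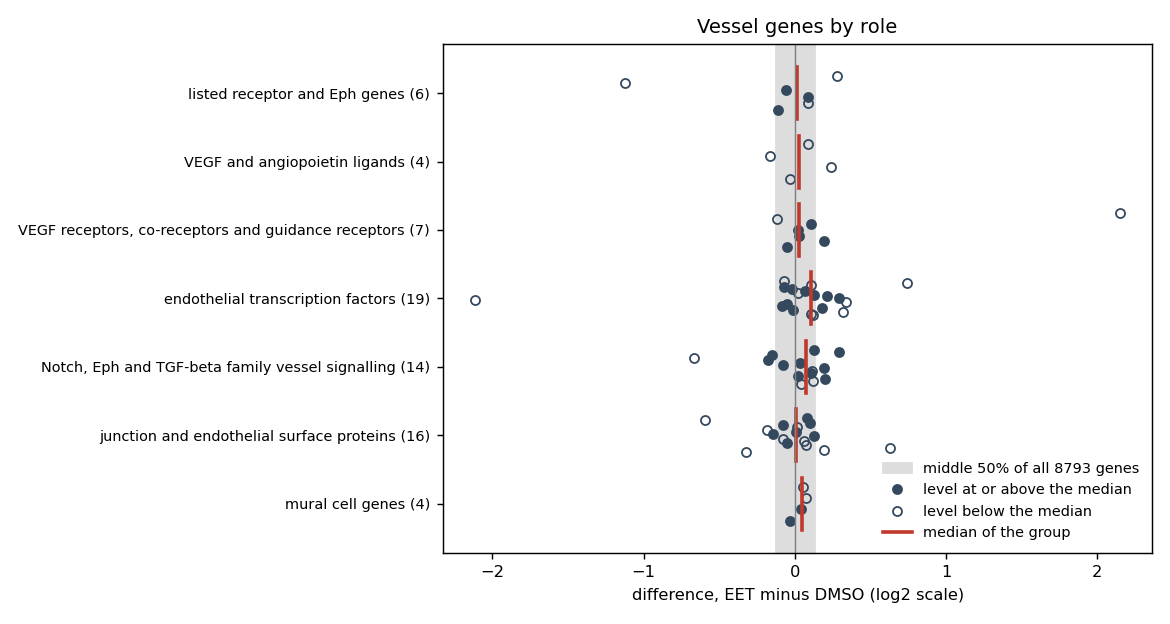
Log2 differences, EET minus DMSO, of the 6 vessel genes (top) and of the 64 measured genes of the wider list by role, filled where the level was at or above the median, with each group's median in red and the middle 50% of all 8793 genes in grey. Group medians lie between 0.01 and 0.11, and the 2 points beyond 2 log2 units, sema3ab and heyl, are both dim.

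Of 12 VEGF and angiopoietin ligand genes listed, 4 were measured, all below the median level. Of 4 measured, 2 were higher and 2 lower in EET, with differences from -0.16 to 0.24. Their median was 0.03, but 0.58 in the replicate 3 pair and -0.18 in the other 4 arrays. The VEGF-A gene vegfaa read 4.76, 4.38 and 4.78 in EET, against 4.98, 4.68 and 4.75 in DMSO, and the groups overlapped. Its log2 difference was -0.16 ± 0.16 (SE; limma, adjusted p = 0.943). The Flt4 ligand gene vegfc differed by 0.09 ± 0.16, its sign turning without both replicate 3 arrays, where it was -0.11.

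Of 7 measured receptors, co-receptors and guidance genes, 5 were higher in EET and 2 lower. Their median was 0.03. The VEGF co-receptor gene nrp1a differed by 0.03 ± 0.14 and the apelin receptor gene aplnra by 0.19 ± 0.14 (limma, adjusted p = 0.932 for aplnra). The semaphorin gene sema3ab, which encodes a secreted guidance cue, had the smallest unadjusted p of the list. It read 2.78, 1.03 and 3.39 in EET, against 0.12, 0.11 and 0.51 in DMSO. All 3 EET arrays were higher, by a log2 difference of 2.15 ± 0.62 (SE; limma, adjusted p = 0.930), and all DMSO values were close to 0 on the log2 scale, a level not known to be above background. With log2(2^value + 32), which compresses low levels, its difference was 0.21.

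Of 19 measured endothelial transcription factors, fli1 among them, 12 were higher and 7 lower in EET, and their median was 0.11. The median was -0.02 in the replicate 3 pair and 0.15 in the other 4 arrays. The brightest, nr2f2 and nr2f1a, encode nuclear receptors, that of nr2f2 promoting venous identity, and differed by -0.07 ± 0.12 and -0.02 ± 0.11. The Notch target gene hey2, which acts in arterial fate, read 4.40, 4.26 and 4.09 in EET, against 3.99, 4.06 and 3.70 in DMSO. Each EET array was above each DMSO array, by a log2 difference of 0.34 ± 0.15 (SE; limma, adjusted p = 0.930). The homeobox gene hhex, active in endothelium, liver and pancreas, differed by 0.29 ± 0.17 (limma, adjusted p = 0.932). The dim sox17 differed by 0.74 ± 0.37 (limma, adjusted p = 0.930). Like hey2, both were named because their groups did not overlap. Without EET replicate 2 the difference was 0.12 for hhex and 0.32 for sox17. In DMSO sox17 read 0.09, 0.23 and 0.12, a level not known to be above background. With log2(2^value + 32) its difference was 0.039. The related Notch target gene heyl, singled out after its values were seen, differed by -2.11 ± 0.73 at a low level (limma, adjusted p = 0.930), with EET replicate 1 above the lowest DMSO array.

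Among 14 measured genes of Notch, Eph and TGF-beta family signalling, 10 were higher in EET and 4 lower. Their median was 0.07. The brightest were ephb2b, an Eph receptor gene, at 0.02 ± 0.11 and the Notch receptor gene notch3, which mural cells use, at -0.15 ± 0.18. The gene efnb2b, the second ephrin-B2 gene, had 2 probe sets on opposite sides. The brighter read 5.43, 5.28 and 5.28 in EET, against 5.01, 5.17 and 5.22 in DMSO, a log2 difference of 0.20 ± 0.11 (SE; limma, adjusted p = 0.932). The dimmer read 4.35, 4.01 and 4.14 in EET, against 4.37, 4.51 and 4.43 in DMSO, a log2 difference of -0.27 ± 0.12 (SE; limma, adjusted p = 0.930). In neither did the groups overlap, so the array gives no single direction for efnb2b. The gene smad6a, singled out after its values were seen, encodes an inhibitor of BMP signalling and read 5.16, 5.20 and 4.91 in EET, against 4.79, 4.93 and 4.67 in DMSO. EET replicates 1 and 2 lay above every DMSO array and EET replicate 3 did not. Its log2 difference was 0.29 ± 0.12 among the brighter probe sets (SE; limma, unadjusted p = 0.037, adjusted p = 0.733), with an interval of 0.02 to 0.56, and over all probe sets the interval was -0.04 to 0.62.

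Of 16 measured junction and surface genes, 9 were higher in EET and 7 lower. Their median was 0.01. The junctional adhesion gene jam3b was lower in all 3 EET arrays at its brighter probe set, at 8.13 ± 0.05 in EET and 8.28 ± 0.10 in DMSO (SD, n = 3), a log2 difference of -0.15 ± 0.10 (SE; limma, adjusted p = 0.932). At its other probe set the groups overlapped, with a difference of -0.06 ± 0.15. The LIM domain gene crip2 differed by -0.05 ± 0.10. The 4 measured mural cell genes had a median of 0.05, with notch2 at 0.04 ± 0.12 at its brightest probe set and the smooth muscle actin gene acta2 at -0.03 ± 0.11. The other 2 probe sets of notch2 differed by -0.12 ± 0.15 and, at a low level, by -0.92 ± 0.37 (limma, adjusted p = 0.930 for the dimmer). Of 13 genes of the list with several probe sets, 6 had probe sets on both sides of 0: efnb2b, notch1a, notch2, nr2f2, rgs5a and s1pr2.

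The vessel gene with the widest range over the 6 arrays among kdrl, flt4 and efnb2a was flt4, at 0.611 log2 units. Of 5315 other genes at brighter probe sets, the 5 whose values, each centred on its own mean, followed flt4 most closely over the 6 arrays were tab1, hoxb6a, elp5, pggt1b and ptf1a. Their mean absolute distance from flt4 was 0.0376 to 0.0571 log2 units per array, beside a median of 0.203 over the 5315. None of the 5 was in either vessel list. The likeness is a description of these arrays, and how close the best matches of other profiles lie was not computed.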

How the data were processed

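RNA of pooled whole embryos was measured on 1-colour Affymetrix arrays for zebrafish, per the labels. The authors' deposited values are on a log scale, taken here as log2: the highest, 13.63, would as a natural log exceed the 65535 that a 16-bit scanner records. The background correction, probe summary and scaling used by the authors are not given in the sources used here. Values ran from -3.87 to 13.63, with array medians of 4.80 to 4.81.

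Of 15617 probe sets, 115 controls were left out. Genes were named from the platform annotation (10795 probe sets with 1 symbol, 135 with several, 4572 with none), with symbols updated by Entrez identifier from RefSeq (GRCz12tu). The brightest probe set stood for a gene. EET and DMSO were compared in R 4.3.3 using limma 3.58.1 (lmFit, eBayes, 2-sided, no covariates) on all probe sets, and again on the brighter ones. The procedure was tried on simulated data with independent noise in every array, and the outcome is not given here. That noise held no shift shared by both replicate 3 arrays, so the trial does not cover such a shift. By the rule for named genes the text gives the chosen genes, the 2 brightest genes of each role and up to 6 per direction whose groups did not overlap, of which 1, lower in EET, is not reported here; fli1, heyl, smad6a, the genes closest to flt4 in profile and the markers were added. The genes and lists were chosen with earlier results of these data known. Other settings tried were quantile or median scaling, leaving out dim probe sets, log2(2^value + 32), trend and robust, weighted arrays, a replicate block, a batch term for replicate 3, each array or both replicate 3 arrays left out, a looser threshold and all probe sets of a gene averaged.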

Additional observations from a re-analysis of the deposited data

How the results depend on the processing

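In the settings tried 0 of the 6 vessel genes passed, with 0.643 the lowest adjusted p over all probe sets (tek without EET replicate 1) and 0.569 among the brighter ones (kdrl with array weights). Without both replicate 3 arrays flt4 was at -0.046, ephb4a at -0.063, vegfc at -0.11, fli1 at 0.15 and the median of the 6 at -0.089, and with array weights fli1 was at 0.021. The replicate 3 pair alone, added after the data were seen, gave 0.55 for tie1, -2.32 for tek, 0.35 for flt4, 0.38 for ephb4a and 0.20 for the median. With 1 array left out, differences ran from -0.13 to 0.022 for kdrl, -0.063 to 0.20 for flt4, -0.056 to 0.20 for ephb4a, -0.099 to 0.13 for fli1, -0.15 to 0.0030 for nr2f2, -0.064 to 0.039 for nr2f1a, -0.042 to 0.14 for nrp1a, -0.048 to 0.19 for vegfc, -0.050 to 0.065 for ephb2b, -0.017 to 0.13 for notch2 and -0.095 to 0.032 for acta2. They kept their sign for tie1 (0.12 to 0.39), tek (-1.82 to -0.75) and efnb2a (-0.20 to -0.015). The cause of these turns was not tested. Against 0 probe sets called over all, 1 was called with median centring, 1 with array weights, 1 at an adjusted p under 0.10, 2 with log2(2^value + 32) and 3 with trend and robust. Against 6 among the brighter ones, 10 were called with trend and robust, 12 with array weights, 12 with the replicate block, 12 with replicate 3 as a batch term and 0 to 6 with 1 array left out. The replicate block called 0 of the 6 vessel genes, and over all probe sets it called 0 probe sets of any kind. Whether the numbers pair the arrays is not settled: the labels name nothing that a number shares, and deviations from the group means correlated between arrays of one number at 0.042, 0.056 and 0.148 when taken over all probe sets. Taken over the brighter set alone, the values were 0.177, 0.239 and 0.554. Of the 6 arrays, 6 correlated best with their own number over all probe sets and 2 among the brighter ones, those of replicate 3. The fit without the block was kept.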
